A study of Mus musculus with 100 samples.

Results

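ERK1 occupancy of chromatin was measured by ChIP-seq in mouse bone marrow-derived macrophages (BMDMs), with 2 libraries from vehicle-treated cells (Veh) and 2 from cells treated with KLA (Kdo2-lipid A, a TLR4 agonist) for 6 h. These 4 of the 100 samples of the series were chosen because they make up its ERK1 KLA experiment, and the members described here are the 27931 ERK1 peaks of that experiment, all of which held enough tags to be tested. Every library came from wild-type cells of C57BL/6 mice aged 8 to 12 weeks, differentiated with M-CSF and kept in low serum before treatment, so both groups shared genotype, strain, age and starvation. Chromatin was crosslinked with disuccinimidyl glutarate and formaldehyde and precipitated with a monoclonal antibody to ERK1. The labels call the libraries biological replicates without saying which animals or cultures they came from, so the p-values below measure only the spread between these samples.

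ERK1, the product of Mapk3, is a serine/threonine kinase at the end of the RAF, MEK and ERK cascade. In macrophages TLR4 ligands activate this cascade through the kinase TPL2, and active ERK phosphorylates both cytoplasmic proteins and nuclear factors such as the ETS-domain protein ELK1 and members of the AP-1 family. ERK1 has no DNA-binding domain of the kind found in transcription factors, and its ChIP signal reads the position of the kinase on crosslinked chromatin, not its activity.

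Library totals ran from 6.36 to 8.65 M tags, and values below are tags per 10 M of the library total. Of all tags, 8.43 to 9.22% fell in the peaks in Veh and 10.1 to 11.1% in KLA. Log2 tag levels of the 2 Veh libraries had a Pearson r of 0.703 across the 27931 peaks, and those of the 2 KLA libraries 0.701, while r between a Veh and a KLA library was between 0.126 and 0.193. Peaks are not independent replicates, and they were called in these same libraries, separately in Veh and KLA before merging, which bears on that difference. All 8 macrophage markers fixed for the check of cell type, such as Spi1, Csf1r and Adgre1, had ERK1 peaks. Of 43 markers of T cells, B cells, neutrophils, erythroid cells and fibroblasts, 11 had any, and of their 26 peaks 1 was called, at Camp. The tags summed over these 26 peaks were 985 and 704 in Veh and 1162 and 947 in KLA, against 2023 and 1825 in Veh and 2271 and 2104 in KLA over the 42 macrophage marker peaks. The sum over the 7 neutrophil marker peaks went from 83.4 and 82.1 in Veh to 214 and 157 in KLA, and that over the 3 erythroid marker peaks from 118 and 97.1 to 49.2 and 51.7, and their part in the results below was not tested.

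With KLA, 2884 peaks were higher, or 10.3% of those tested, and 708 were lower, or 2.53% (edgeR quasi-likelihood test, adjusted p under 0.05 and a change of more than 2-fold). At the higher peaks the median level was 4.72 and 4.62 tags per 10 M in the Veh libraries and 47.9 and 43.6 in the KLA libraries. At the lower peaks it was 40.9 and 37.0 in Veh and 4.92 and 4.08 in KLA. The typical called peak was thus near the floor of detection in the group where it was low, and 494 of the higher peaks had no tag in either Veh library, as 86 of the lower ones had none in either KLA library. That low level was partly fixed by the choice of peaks, which were found in these same libraries, in Veh and KLA apart. Peaks found only in KLA made up 2695 of the higher ones (93.4%), and peaks found only in Veh 649 of the lower (91.7%). Of the 6682 peaks found in both, 184 were higher (2.75%) and 58 lower (0.868%). The counts and p-values are thus not independent of that choice. Both groups of libraries were fully separated at every called peak, as they were at 18035 of the 27931 peaks tested. The counts depended on how the libraries were scaled. The median log2 change over all peaks was 0.26 with library totals and 0.047 with TMM (trimmed mean of M-values) scaling, which called 2286 higher and 1193 lower, so that the share of calls in the higher direction went from 80.3% to 65.7%. The counts also leaned on single libraries. Without KLA library 1 the calls were 692 higher and 361 lower, and without KLA library 2 they were 887 and 225. Without Veh library 1 they were 3310 and 478, and without Veh library 2 they were 3156 and 683. The last peak called had an adjusted p of 0.049986 and the first one left out an adjusted p of 0.050008, so the edge of the set is not a step in the data.

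The higher peaks lay nearest to 1805 genes and the lower peaks to 618, of 9725 genes nearest to any tested peak, and 79 genes had both. Exactly 1 higher peak was found at 1253 of the 1805 genes and exactly 1 lower peak at 545 of the 618. There were 245 genes with 3 or more higher peaks and 12 with 3 or more lower ones, from totals of 2884 and 708 peaks, and whether gains were more grouped than losses was not tested.

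**Figure D1:**
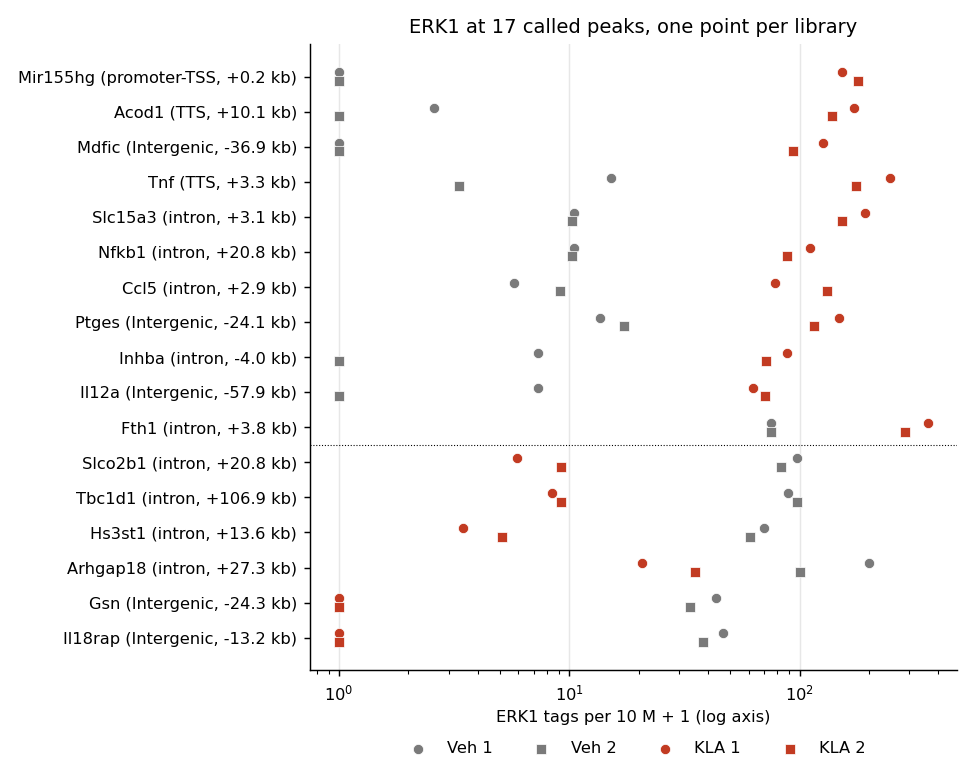
ERK1 tags per 10 M, plus 1 so that zeros can be drawn, on a log axis, at 11 peaks called higher (above the dotted line) and 6 called lower with KLA. Each point is a library (grey Veh, red KLA; circle library 1, square library 2), and labels give the annotation class and the distance from the nearest annotated start. In every row both KLA libraries lie on one side of both Veh libraries; at Mir155hg both Veh libraries are at 0, and at Gsn and Il18rap both KLA libraries are at 0.

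The peak with the lowest p-value lay at the promoter of Mir155hg, the host gene of the microRNA miR-155, which TLR ligands induce in macrophages. Its tags were 0 and 0 in Veh and 151 and 178 in KLA, which is at least 82.1-fold higher if 3 tags are taken for the Veh group (adjusted p = 0.00201). A second peak 4.2 kb into the host transcript, annotated to Mir155 itself, had 0 and 1.16 tags in Veh and 60.2 and 59.9 in KLA. Of the 8 peaks nearest to Mir155hg, 6 were called higher, and 4 to 7 were without 1 of the libraries.

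Sequences of 200 bp around the centres of 5 called peaks are shown because they place the words searched below in their context. All are from GRCm38.p6 (mm10), plus strand, and capitals mark the AP-1 word TGANTCA, the NFkB word GGANTTTCC, the interferon-stimulated response element (ISRE) word GAAANNGAA or the PU.1 word GAGGAAGT on either strand. The first 4 windows gained ERK1 and the last one lost it.
Mir155hg promoter, chr16:84713125-84713324, holding none of the words: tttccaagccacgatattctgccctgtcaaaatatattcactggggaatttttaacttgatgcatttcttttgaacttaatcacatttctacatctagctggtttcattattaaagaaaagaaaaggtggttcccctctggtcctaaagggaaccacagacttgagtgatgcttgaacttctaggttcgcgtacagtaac
Mdfic, 36.9 kb upstream, chr6:15683619-15683818, ISRE and NFkB: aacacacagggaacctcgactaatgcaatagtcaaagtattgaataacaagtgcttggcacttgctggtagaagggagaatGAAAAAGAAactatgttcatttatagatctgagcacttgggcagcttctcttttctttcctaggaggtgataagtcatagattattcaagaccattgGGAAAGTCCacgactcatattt
Nfkb1, intron 1 of 24, chr3:135670646-135670845, AP-1 and NFkB: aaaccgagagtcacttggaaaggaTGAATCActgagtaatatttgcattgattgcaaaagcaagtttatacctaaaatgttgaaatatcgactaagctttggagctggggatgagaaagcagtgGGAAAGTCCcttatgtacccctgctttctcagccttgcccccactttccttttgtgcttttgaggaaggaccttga
Tnfaip3, 62.9 kb upstream, chr10:19078210-19078409, AP-1, NFkB and ISRE: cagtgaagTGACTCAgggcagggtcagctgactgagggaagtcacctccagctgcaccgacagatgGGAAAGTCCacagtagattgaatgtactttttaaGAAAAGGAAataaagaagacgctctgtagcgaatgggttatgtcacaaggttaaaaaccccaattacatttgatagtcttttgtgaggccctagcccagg
Slco2b1, intron 7 of 13, chr7:99674922-99675121, PU.1: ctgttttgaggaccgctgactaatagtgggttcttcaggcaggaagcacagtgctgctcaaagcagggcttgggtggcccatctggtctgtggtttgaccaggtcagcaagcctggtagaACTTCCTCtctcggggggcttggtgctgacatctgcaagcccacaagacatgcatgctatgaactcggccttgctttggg

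The Mdfic window, upstream of a gene for an inhibitor of MyoD family proteins, had no tag in Veh and 125 and 92.6 tags per 10 M in KLA, at least 54.9-fold higher. The window in Nfkb1, which encodes the p105 precursor of the NFkB subunit p50, had 9.44 and 9.25 tags in Veh and 109 and 87.1 in KLA, a log2 change of 3.37 with an SE of 0.48 (adjusted p = 0.00524). The window upstream of Tnfaip3, the gene of the NFkB inhibitor A20, had 17.3 and 8.09 tags in Veh and 82.4 and 76.2 in KLA (log2 change 2.67, SE 0.52, adjusted p = 0.0124). In all 3 both KLA libraries were above both Veh libraries, and none lost its call when any 1 library was left out.

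Losses of similar size were found too. In Slco2b1, which encodes an organic anion transporter, the window shown went from 96.0 and 82.1 tags per 10 M in Veh to 4.92 and 8.17 in KLA (log2 change -3.74, SE 0.54, adjusted p = 0.00524). In Tbc1d1, the gene of a Rab GTPase-activating protein, a peak in intron 16 of 18 went from 88.1 and 96.0 to 7.38 and 8.17 (log2 change -3.54, SE 0.50, adjusted p = 0.00512). KLA libraries were low at each of these, and the groups did not overlap. A peak in the single intron of Hs3st1, a heparan sulfate sulfotransferase gene, went from 69.2 and 60.1 to 2.46 and 4.08. In Arhgap18, the gene of a GTPase-activating protein, a peak in intron 1 went from 200 and 99.4 to 19.7 and 34.0 (log2 change -2.47, SE 0.45), with Veh libraries that differed by more than the KLA ones. Upstream of Gsn, which encodes the actin-severing protein gelsolin, tags went from 42.5 and 32.4 to 0 in both KLA libraries, at least 18.9-fold lower. Upstream of Il18rap, a subunit of the receptor for interleukin 18, they went from 45.6 and 37.0 to 0 in both, at least 21-fold lower. None of these 6 calls was lost without any 1 library.

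Gains were spread over whole loci of the inflammatory response. Acod1, which encodes the enzyme that makes itaconate, had 14 peaks in and just past the gene, and 13 were called higher over 11.8 kb, from the promoter through introns and the last exon to beyond the annotated end. Summed over the called peaks, tags per 10 M were 56.6 and 64.7 in Veh and 1415 and 1191 in KLA. The strongest test was at the transcription termination site (TTS), where Veh held 1 tag in all (1.57 and 0 per 10 M) and KLA 172 and 137, a ratio of 234 with a 95% counting interval of 41.5 to 9264. Tags at the promoter were 12.6 and 1.16 in Veh and 113 and 114 in KLA, so the peaks at the end of the gene were as high as the one at its start. Between 12 and 14 of these peaks were called when 1 library was left out.

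Rsad2, the interferon-induced gene of the antiviral enzyme viperin, had 15 peaks over 19.5 kb and all were called higher. Of these, 8 lay in introns, 3 in the 3′ UTR, 1 in an exon, 1 at the promoter and 2 between genes. Their summed tags were 105 and 76.3 in Veh and 730 and 630 in KLA, and each single peak was modest, with 17.7 to 117 tags in the KLA libraries. The count rested on both KLA libraries, since 2 peaks were called without KLA library 1 and 5 without KLA library 2. Mx1, an interferon-induced gene, had 11 of 15 peaks called higher over 17.8 kb, with summed tags of 44.1 and 50.9 in Veh and 618 and 656 in KLA. Without KLA library 1 the Mx1 count was 7 and without KLA library 2 it was 2. Its TTS peak had 9.44 and 1.16 tags in Veh and 125 and 77.6 in KLA (log2 change 4.36, SE 0.68, adjusted p = 0.00637) and was called without any of the libraries.

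A different layout was seen where most gains lay between genes and reached far from a start. Edn1, the gene of the vasoconstrictor peptide endothelin 1, had 13 of 16 peaks called higher over 151 kb. Of these 10 lay between genes, 2 at a TTS and 1 at a promoter. Their summed tags were 140 and 164 in Veh and 1061 and 1004 in KLA. Leaving out KLA library 1 brought this to 4 and leaving out KLA library 2 to 8. Tnfaip3 had 14 of 23 over 135 kb, with 216 and 187 tags in Veh and 1008 and 1115 in KLA, and 6, 4 and 9 without KLA library 1, KLA library 2 and Veh library 2. Of the called Tnfaip3 peaks 10 lay between genes and 1 at a promoter. The strongest Tnfaip3 promoter peak was not called, with 66.1 and 72.8 tags in Veh against 135 and 128 in KLA (log2 change 0.92, SE 0.32, adjusted p = 0.0740). The KLA libraries were the higher ones there too, from a Veh level above that of its distal peaks.

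The long noncoding RNA gene 1700016G22Rik had the most gains, 16 of its 37 peaks, spread over 518 kb with the nearest protein-coding start, that of the zinc finger factor gene Klf6, 32.4 kb away. Summed tags there were 261 and 156 in Veh and 1329 and 1249 in KLA. The count was 5 without KLA library 1, 9 without KLA library 2 and 10 without Veh library 2. All 11 peaks nearest to 4930529L06Rik were called higher over 63.0 kb, with summed tags of 146 and 150 in Veh and 1173 and 1006 in KLA, and 8 to 11 were called without 1 library. They lay 66.9 to 130 kb from the Mir155hg promoter peak on the same chromosome. Pla2g4a, the gene of the cytosolic phospholipase A2 that frees arachidonic acid, had 10 of 21 peaks called higher over 135 kb, 8 of them in introns, with 67.7 and 80.9 tags in Veh and 580 and 546 in KLA. Its count was 4 without KLA library 1 and 5 without KLA library 2. The start of Ptgs2, the cyclooxygenase 2 gene, lay 134 kb from the nearest of them.

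Because these loci were picked for their number of calls, the counts describe them and carry no test. Of the genes with losses Armc2 had the most, 5 of 8 peaks over 163 kb, with summed tags of 230 and 147 in Veh and 27 and 32.7 in KLA. Armc2 had none left without KLA library 2 and 1 without KLA library 1 or without Veh library 1. Runx1, a transcription factor gene of the blood lineages, had 4 losses and 2 gains among 34 peaks. Without KLA library 2 neither its losses nor its gains were called, and without KLA library 1 there was 1 loss and no gain. Without Veh library 1 there were 2 losses and 1 gain, and without Veh library 2 there was 1 loss and 5 gains.

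**Figure D2:**
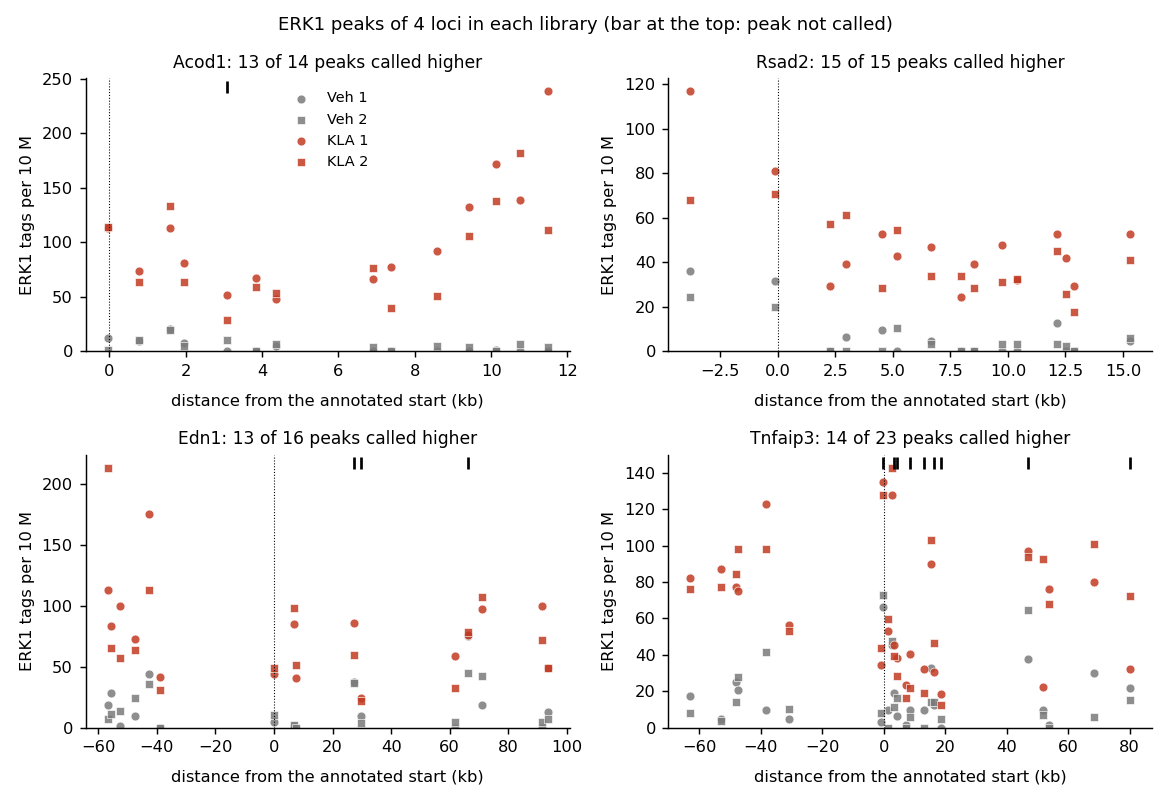
ERK1 tags per 10 M at each peak of Acod1, Rsad2, Edn1 and Tnfaip3 against its distance from the nearest annotated start in kb (positive is downstream; grey Veh, red KLA; circle library 1, square library 2). Short bars at the top mark peaks that were not called. At Acod1 and Rsad2 the gains run along the gene for 11.5 and 15.3 kb past the start, and at Edn1 and Tnfaip3 they reach 93.4 and 68.5 kb from it.

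The genes of the response to TLR4 were grouped into lists by function, and each list was described by all peaks nearest to its members. The interferon list, with genes such as Ifit1, Isg15 and Usp18, had 64 of 134 peaks called higher, or 47.8% against 10.3% of all peaks, and a median log2 change of 2.29 against 0.26. Without KLA library 1 or 2 its count was 20 or 22. NFkB subunits and inhibitors had 44 of 128 peaks called higher (median 1.48), at 11 of 18 genes with a peak, including Nfkb1, Rel, Nfkbia, Nfkbiz, Bcl3, Birc3 and Tnip1. Without KLA library 1 or 2 that count was 20 or 18, and neither list had a peak called lower. Under TMM scaling 1 peak of each was called lower, and 1 interferon peak was without Veh library 1 and 2 NFkB peaks were without Veh library 2. A list with no lower call is not by itself apart from the rest, since genes of proteases and coagulation had 3 of 35 peaks called higher and none lower, and mitochondrial ribosomal protein genes 2 of 45 and none.

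Cytokine genes had 31 of 94 peaks called higher (median 1.41), at 13 genes, and 12 or 14 without KLA library 1 or 2. Tnf, the gene of tumor necrosis factor, showed the gain along its length, as Acod1 did. Its TTS peak had 14.2 and 2.31 tags per 10 M in Veh and 247 and 176 in KLA (log2 change 4.78, SE 0.55, adjusted p = 0.00361), and its 3′ UTR peak had 4.72 and 10.4 in Veh and 143 and 128 in KLA (log2 change 4.07, SE 0.47). The Tnf promoter started from 48.8 and 59.0 in Veh and had 203 and 146 in KLA (log2 change 1.69, SE 0.33, adjusted p = 0.0126), a call lost without KLA library 1 (log2 change 1.43, adjusted p = 0.0656). Inhba, which encodes the activin A subunit, had 6.29 and 0 in Veh and 87.3 and 70.8 in KLA in an intron (log2 change 4.77, SE 0.81, adjusted p = 0.00825). At Il12a, the gene of the interleukin 12 subunit p35, a peak 57.9 kb upstream had 6.29 and 0 in Veh and 61.5 and 69.4 in KLA (log2 change 4.49, SE 0.84, adjusted p = 0.0109). Inhba and Il12a kept their calls without any 1 library, and at each of these peaks the KLA libraries were the higher ones with no overlap.

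Chemokine genes had 37 of 101 peaks called higher (median 1.19), at 14 genes, and 19 without either KLA library. Ccl5, whose product attracts T cells and monocytes, had 4.72 and 8.09 tags in Veh and 77.5 and 131 in KLA in its second intron (log2 change 3.94, SE 0.55, adjusted p = 0.00482). A peak 3.5 kb upstream of Ccl7, a monocyte chemoattractant gene, had 7.87 and 3.47 in Veh and 99.6 and 62.6 in KLA (log2 change 3.86, SE 0.61). Near Ccl4, the gene of MIP-1β, Veh was already at 33.0 and 32.4, and KLA was at 132 and 197 (log2 change 2.32, SE 0.36). Receptors for chemotactic signals had 15 of 104 peaks called higher and 3 lower (median 0.15), near the values of all peaks, with 6 higher and none lower when either KLA library was left out. A peak 13.1 kb from the start of Fpr2, which encodes a formyl peptide receptor, was among them, at 25.2 and 32.4 in Veh and 170 and 186 in KLA (log2 change 2.61, SE 0.35).

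Genes of eicosanoid synthesis had 21 of 85 peaks called higher and 3 lower (median 0.21). That is 24.7% higher and 3.53% lower against 10.3% and 2.53% of all peaks, so the lower share was near that of all peaks. Fewer were called in each direction without either KLA library. The gains were at Pla2g4a, at the prostaglandin synthesis genes Ptgs2 and Ptges, at Tbxas1, which encodes thromboxane synthase, and at the prostaglandin receptor gene Ptger4, and the losses at Alox5ap, which serves leukotriene synthesis, at the prostaglandin receptor gene Ptger2 and at Hpgd, the gene of the enzyme that inactivates prostaglandins. A peak 24.1 kb upstream of Ptges, the gene of prostaglandin E synthase, had 12.6 and 16.2 tags in Veh and 148 and 114 in KLA (log2 change 3.16, SE 0.42, adjusted p = 0.00447). The Ptgs2 promoter had 7.87 and 6.94 in Veh and 82.4 and 80.3 in KLA, with both KLA libraries well above both Veh libraries. In Hpgd a peak in an intron had 64.5 and 32.4 in Veh and 11.1 and 4.08 in KLA (log2 change -2.62, SE 0.69, adjusted p = 0.0312). That call was lost without Veh library 1 (log2 change -2.05, adjusted p = 0.0833) and without KLA library 2 (-2.10, adjusted p = 0.139).

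MicroRNA hosts had 23 of 60 peaks called higher and 1 lower (median 1.46), with 10 or 12 higher without KLA library 1 or 2. Beside Mir155hg the gains were at Mir147, Mir21a, Mir222 and Mir99b, and the loss was at Mir223, a microRNA of granulocytes and monocytes. The Mir223 call was lost without Veh library 1 (log2 change -2.33, adjusted p = 0.0717), KLA library 1 (-2.26, adjusted p = 0.124) or KLA library 2 (-3.38, adjusted p = 0.0595). The iron and acute phase list had 13 of 48 called higher, and 5 or 7 without KLA library 1 or 2. Fth1, the gene of the ferritin heavy chain, had 73.9 and 74.0 tags in Veh and 360 and 286 in KLA (log2 change 2.12, SE 0.28, adjusted p = 0.00447). A peak 2.9 kb upstream of Cp, which encodes the ferroxidase ceruloplasmin, had 9.44 and 0 in Veh and 77.5 and 51.7 in KLA (log2 change 3.90, SE 0.86, adjusted p = 0.0167), a call lost without KLA library 1 (log2 change 3.55, adjusted p = 0.0626) and with DESeq2 (3.66, adjusted p = 0.180).

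**Figure D3:**
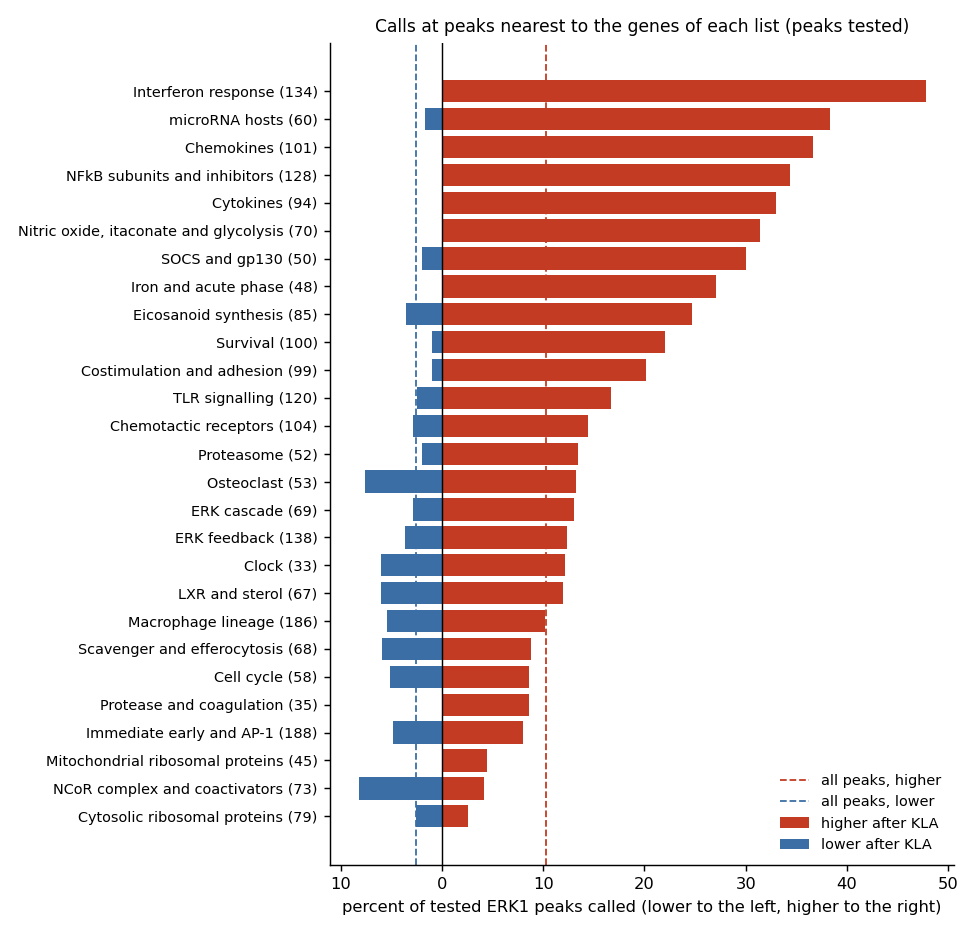
Percent of tested ERK1 peaks called higher (red, to the right) or lower (blue, to the left) with KLA among all peaks nearest to the genes of each list, with the number of peaks in brackets; lists with under 30 peaks are left out. Dashed lines give the values over all 27931 peaks, 10.3% and 2.53%. The interferon list reaches 47.8% higher, cytosolic ribosomal protein genes stay at 2.53% higher and proteasome genes are at 13.5%.

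Of 69 peaks nearest to genes of the ERK cascade itself 9 were called higher and 2 lower (median 0.11), or 13% higher against 10.3% of all peaks, 6 higher with TMM scaling, and 1 or 2 were higher without KLA library 1 or 2. None was lower without KLA library 2, and 1 was without Veh library 1. The strongest peak of Mapk3, which encodes ERK1, had 91.3 and 93.7 tags per 10 M in Veh and 86.1 and 58.5 in KLA (log2 change -0.35, SE 0.35, adjusted p = 0.515). The promoter of Map2k2, the MEK2 gene, had 58.2 and 32.4 in Veh and 12.3 and 16.3 in KLA (log2 change -1.64, SE 0.59, adjusted p = 0.0835). Map2k1, the MEK1 gene, had no peak. The cascade gene with a strong gain was Rasgrp1, an activator of RAS, where a peak in intron 5 of 16 had 7.87 and 0 in Veh and 127 and 76.2 in KLA (log2 change 4.82, SE 0.78, adjusted p = 0.00746), a call lost with DESeq2 (log2 change 4.58, adjusted p = 0.0598).

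Phosphatases and other feedback genes of the pathway had 17 of 138 peaks called higher and 5 lower (median 0.13), or 12.3% higher against 10.3% of all peaks, so the group was near the background, with 3 or 7 higher without KLA library 1 or 2, and 3 lower without KLA library 1 and 2 without KLA library 2 or Veh library 1. Gains were at Dusp1, Dusp2, Dusp6 and Dusp10, which encode phosphatases of MAP kinases, at Spred1 and Errfi1, and at the RNA-binding protein genes Zfp36, Zfp36l1 and Zfp36l2. Losses were at Dusp4, Dusp10 and Zfp36l2, so the last 2 genes held peaks of both kinds. The strongest Dusp6 peak was not called, at 48.8 and 52.0 tags in Veh and 120 and 78.9 in KLA (log2 change 0.98, SE 0.37, adjusted p = 0.0977). Immediate early and AP-1 genes, among them known nuclear targets of ERK signaling, had 15 of 188 peaks called higher and 9 lower (median 0.17), which turned to 11 and 13 with TMM scaling. That is a smaller share higher than among all peaks (7.98% against 10.3%). The higher count was 4 or 3 without KLA library 1 or 2, and the lower count 3 without either KLA library and 2 without Veh library 1. Gains were at Fos, Junb, Batf, Egr2, Ier5, Klf2 and Klf6, and losses at Jun, Myc, Fosl2, Egr3, Elk3, Ier2, Klf4 and again Fos.

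Macrophage lineage genes had 19 of 186 peaks called higher and 10 lower (median 0.22), or 10.2% higher against 10.3% of all peaks, with 3 higher without either KLA library and 1 or 0 lower without KLA library 1 or 2. Its lower count was 4 without Veh library 1 and 5 without Veh library 2. With all 4 libraries 5.38% of the lineage peaks were lower, against 2.53% of all peaks. The promoter of Cebpa, a factor of the myeloid lineage, had 73.9 and 59.0 tags in Veh and 14.8 and 12.2 in KLA (log2 change -2.28, SE 0.51, adjusted p = 0.0173). That call was lost without KLA library 1 (log2 change -2.42, adjusted p = 0.0608) and without KLA library 2 (-2.15, adjusted p = 0.0826). Cebpa, Maf and Runx1 each had peaks called in both directions, though with TMM scaling Cebpa had no peak called higher. The Trem2 promoter, of a lipid receptor gene, had 80.2 and 103 in Veh and 41.8 and 39.5 in KLA and was not called (log2 change -1.17, SE 0.38, adjusted p = 0.0618). Another peak nearest to Trem2 was called lower. Genes of the NCoR complex and coactivators had 3 of 73 peaks called higher and 6 lower, with a median of -0.34. That is 4.11% higher and 8.22% lower, against 10.3% and 2.53% of all peaks. Without KLA library 1 or 2 those counts were 0 and 1 or 1 and 3, and 3 were lower without Veh library 1. With TMM scaling 1 was higher and 6 lower. Cytosolic ribosomal protein genes, given as a reference, had 2 of 79 called in each direction. Proteasome genes had 7 of 52 higher and 1 lower (median 0.57), or 13.5% and 1.92% against 10.3% and 2.53% of all peaks. The 7 gains lay nearest to 3 of the 25 genes, Psma6, Psmb3 and Psmd7.

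By annotation, ERK1 gains were rare at promoters and common in the rest of the genome. Of 4100 promoter-TSS peaks 3.17% were called higher and 1.90% lower, with a median log2 change of -0.12. The balance at promoters turned with the scaling, to 2.17% higher and 3.51% lower with TMM and 2.68% and 3.83% with DESeq2. Introns had 10.9% higher and 2.77% lower of 12296 peaks, and intergenic peaks 12.3% and 2.45% of 10166. Past the promoter in the gene, 16.3% of 478 TTS peaks, 12.8% of 298 in 3′ UTRs and 11.1% of 305 in exons were higher. Without KLA library 2 the share was 1.64% in exons and 3.02% in introns. In 5′ UTRs 1.72% of 174 peaks were higher, and in CpG islands 1.58% of 379. Counted by distance, 2.86% of the peaks within 500 bp of a start were higher, then 8.97% up to 2 kb, and from 11.7 to 12.6% in every band beyond. Of the higher peaks 88.4% and of the lower peaks 80.4% lay more than 2 kb from a start. Without KLA library 1 or 2, 0.634% or 1.02% of promoter-TSS peaks were higher, against 3.13% or 4.05% of intergenic ones.

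Repeats were not alike. Peaks in LINE elements were higher in 17.9% of 1360 cases (L1 19.5% of 1095, with a median log2 change of 0.88) and those in DNA transposons in 19.9% of 307, with 23.5% of 170 in the hAT-Charlie family. LTR and SINE elements, at 11.9% and 11.3%, were close to all peaks. How the authors treated reads that map to several places is not given in the sources used here, and such reads could be split between copies of a repeat.

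Base composition moved with these classes. Tag-weighted GC content of the peaks was 49.7% in both Veh libraries and 48.0 and 47.9% in the KLA libraries. From the lowest to the highest of 5 bins of near equal size by GC content in the 200 bp around the centre, the share of peaks called higher was 20.3, 13.1, 9.18, 6.14 and 2.27%, and the median log2 change went from 0.96 to -0.22. Promoter-TSS peaks had a median GC of 62.5%, against 47.5% for all peaks, 43.0% for those called higher and 49.0% for those called lower. Within each of the 4 lower bins, peaks near a start and distal peaks were called higher at similar rates, 19.1 and 20.5% in the lowest bin and 6.37 and 6.09% in the fourth. In the highest bin 1.23% of 3662 peaks near a start were higher, and 4.44% of 1755 distal ones. Within the lowest GC bin 25.6% of L1 peaks were higher and 19.8% of all others. When the GC trend of each library was removed, an alternative chosen after seeing the data, 2366 peaks were higher and 621 lower, promoter-TSS peaks were higher in 4.07%, and the median of peaks within 2 kb of a start went from -0.02 to 0.25. The part of base composition in the class differences was not tested further.

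**Figure D4:**
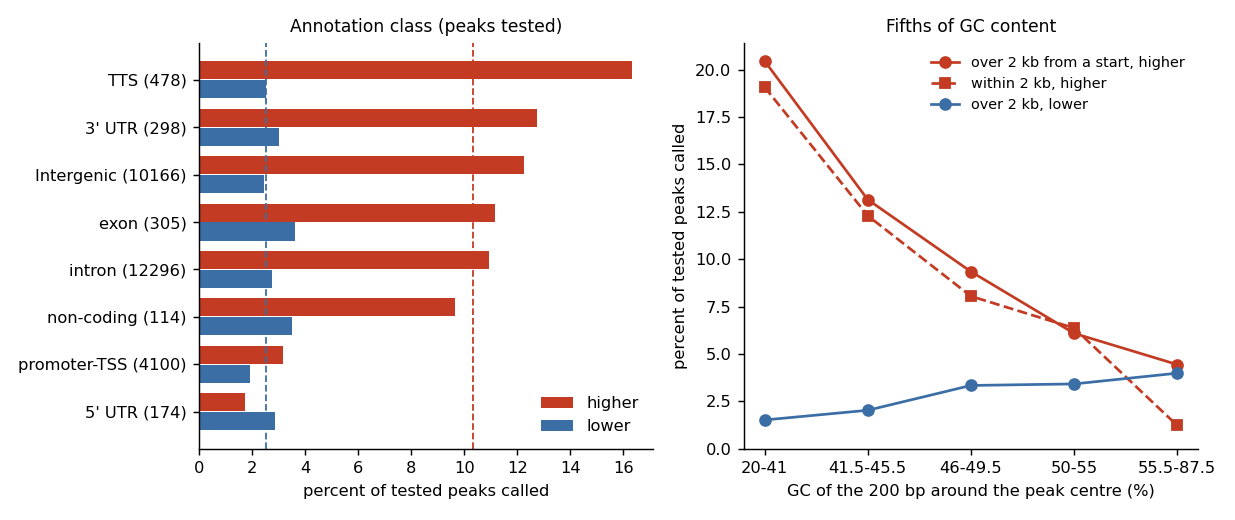
Left, percent of ERK1 peaks called higher (red) or lower (blue) with KLA in each annotation class with at least 100 peaks, with the values over all peaks as dashed lines. Right, the same percent in 5 bins of GC content, for peaks more than 2 kb from a start (solid) and within 2 kb (dashed): it goes from 20.5% to 4.44% for distal peaks and from 19.1% to 1.23% near starts.

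The words of known factors were looked for in the 200 bp around each peak centre, on both strands. The NFkB word was in 5.48% of the higher peaks, 0.42% of the lower and 1.99% of all, and of the 555 peaks that held it 158, or 28.5%, were called higher and 3 lower. The ISRE word was in 15.5% of the higher peaks and 10.7% of all. The AP-1 word was in 23.3% of the higher peaks, 13% of the lower and 22.8% of all. The pooled share hides a split by distance: among distal peaks it was in 24% of the higher, 14.1% of the lower and 27.1% of the uncalled, and within 2 kb of a start in 18.6, 8.63 and 10.6%. The PU.1 word was in 5.96% of the higher peaks, 12.9% of the lower and 10.4% of all. Of the words of promoters, the Sp1 word GGGCGG was in 3.54% of the higher peaks and 13.1% of all, and the ETS word CCGGAAGT, which shares GGAAGT with the PU.1 word, in 0.21% and 1.62%. The cAMP response element word TGACGTCA was in 0.28% of the higher peaks and 0.85% of all. These words differ in GC content, and GC content differs between the groups of peaks as given above, so the shares cannot be told apart from base composition here.

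The same study measured other factors in WT BMDMs with KLA and vehicle in libraries of their own, which played no part in choosing the ERK1 peaks. They were the NFkB subunit p65, the AP-1 member Fosl2, the lineage factor PU.1, the acetyltransferase p300, the coactivator PGC1β, the corepressor NCoR, the deacetylase HDAC3 and the histone mark H3K27ac. The PGC1β libraries carry the same date in the labels as the ERK1 libraries, and input libraries are titled for both. Whether PGC1β and ERK1 were precipitated from the same chromatin is not given. The other readouts carry other dates. The controls were not all alike. The p300 controls are titled vehicle but described as the start of KLA treatment. For its NCoR knockout the paper used mice with floxed Ncor as WT, and the H3K27ac libraries belong to that set. They were fitted together with the knockout libraries. Each readout was tested over its own peaks, and the nearest one within 500 bp of an ERK1 peak was read. Where ERK1 was higher, 97.0% of the p65 peaks so matched were also called higher (2381 of 2456, median log2 change 3.56), against 57% of all p65 peaks. For p300 it was 90.6% (median 2.88) against 42.1% of all its peaks, for PGC1β 84.6% against 16.4%, for HDAC3 80.5% against 27.5% and for NCoR 74.0% against 23.4%. Fosl2 was higher at 62.8% of matched peaks against 11.4% of all its peaks, and PU.1 at 53.6% against 4.53%. H3K27ac regions, which were broader and matched at 26% of the higher peaks, were higher at 32.6% (194 of 596) against 6.49% of all.

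Where ERK1 was lower, the median log2 change of each of the 8 readouts was below 0, from -1.83 for Fosl2 to -0.42 for H3K27ac. NCoR was called lower at 78.5% of matched peaks against 16.7% of all its peaks, HDAC3 at 70.4% against 11.3%, PU.1 at 69.4% against 21.7%, p300 at 66.6% against 12.9%, PGC1β at 45.6% against 6.35%, p65 at 33.0% against 5.43%, Fosl2 at 29.4% against 4.19% and H3K27ac at 14.7% against 3.72%. Across matched pairs Pearson's r between the ERK1 log2 change and that of the other factor was 0.68 to 0.74 for the 7 factors, over 18184 to 23665 pairs, and 0.34 for H3K27ac over 10110. The pairs share the cells' treatment and sequence, and the GC ordering above was present in the other factors too, so this is a description and no test.

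**Figure D5:**
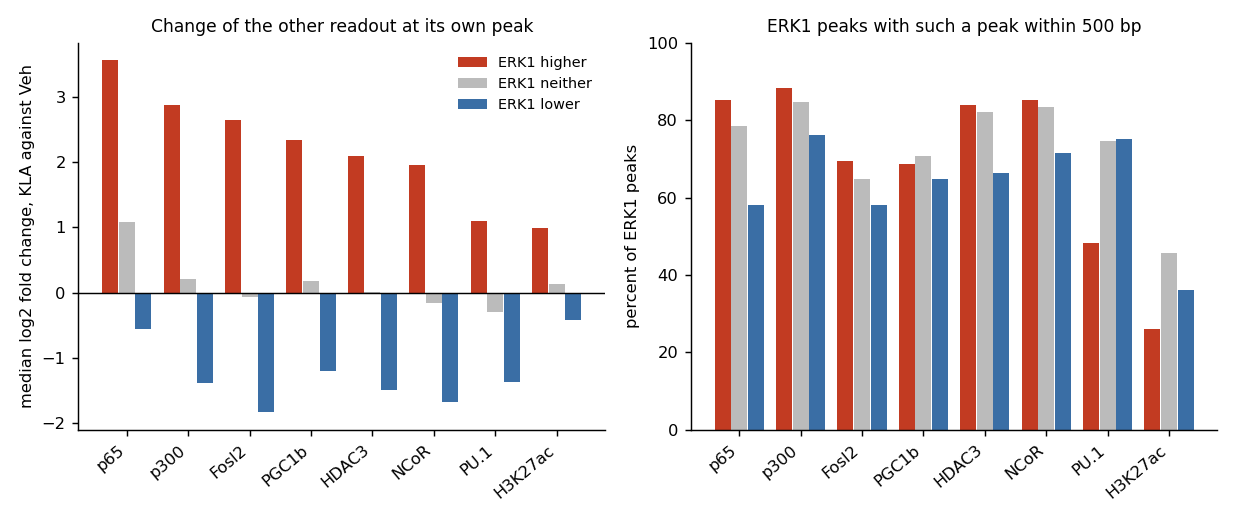
Left, median log2 change with KLA of 8 other readouts at their own peaks within 500 bp of ERK1 peaks that were higher (red), in neither group (grey) or lower (blue). Right, percent of the ERK1 peaks of each group with such a peak. The p65 median is 3.56 at higher ERK1 peaks, 1.08 at uncalled ones and -0.55 at lower ones, and PU.1 peaks are present at 48.2% of higher ERK1 peaks against 75.1% of lower ones.

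Which factors were present differed as well. Of the higher ERK1 peaks 85.2% had a p65 peak and 48.2% a PU.1 peak, whereas of the lower ones 58.2% had p65 and 75.1% PU.1, and of the uncalled ones 78.5% and 74.7%. All 7 factors were found at 36.7% of the higher, 38% of the lower and 45.1% of the uncalled peaks, and none of them at 6.45, 10.3 and 4.01%. Which factors were present also differed between the loci picked above. At the loci with gains over 63.0 kb or more, p65 was found at 16 of 16 called ERK1 peaks for 1700016G22Rik and 11 of 11 for 4930529L06Rik. It was at 12 of 13 for Edn1, 10 of 10 for Pla2g4a and 13 of 14 for Tnfaip3. Along Rsad2 p65 was found at 5 of 15 and Fosl2 at 3, but HDAC3 at 13, and along Mx1 p65 at 3 of 11 and HDAC3 at 5. Acod1 had p65 at 5 of its 13 called peaks and p300 and HDAC3 at all 13. Over the whole genome, higher peaks in exons, 3′ UTRs and TTS regions, 150 in all, had p65 in 58.0% and PU.1 in 32%, and 16% had none of the 7 factors. It was 91.0%, 51.7% and 3.53% of the 1246 intergenic higher peaks, and 82.5%, 45.8% and 8.04% of the 1344 in introns. Uncalled peaks of the first 2 groups of classes differed in the same direction. Of 899 in exons, 3′ UTRs and TTS regions, 66.2% had p65, 67.4% PU.1 and 8.01% none. Of 8671 intergenic ones it was 82.7%, 77.3% and 2.84%.

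An ERK inhibitor (ERKi) was combined with KLA in other experiments of the series. By the paper's methods it was added with the serum starvation, before KLA, so the comparison also covers that time. PGC1β at peaks matched to higher ERK1 peaks had a median log2 change of -0.25 with ERKi, and 11 of 2274 were called higher and 13 lower. Of all 53474 PGC1β peaks 58 were higher and 95 lower (0.108% and 0.178%), so both shares were larger at the matched peaks. Few peaks were called in either set. For NCoR the medians were -1.32 at higher, -0.96 at lower and -1.14 at uncalled ERK1 peaks, and 64.5% of the matched peaks were lower where ERK1 was higher and 41.3% where it was lower, against 48.6% of all NCoR peaks, with 0.634% of all higher. With TMM scaling the NCoR medians were -0.16 and 0.20. The NCoR inhibitor libraries carry another date in the labels than the KLA libraries they were set against, whose labels name no solvent. Inhibitor, date and any solvent therefore cannot be told apart for NCoR. PGC1β with ERKi was set against KLA with the solvent DMSO, of the same date, so these comparisons had unlike controls. In the ERK1 libraries of osteoclast differentiation in the series, 19.1% of the higher, 31.1% of the lower and 39.2% of the uncalled peaks had a peak within 500 bp. Their change from day 0 to day 4 had a median of 1.00 at the higher and 0.95 at the lower ERK1 peaks of the KLA experiment, and 0.040 and -0.036 with TMM scaling, where 2.33% of all peaks were called higher and 0.0267% lower with library totals. One of the 2 day 4 libraries carries a later date in the labels than the other day 0 and day 4 libraries, and without it the medians were 1.21 and 1.22.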

How the data were processed

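ERK1 ChIP-seq tags were analysed in 2 Veh and 2 KLA libraries of WT BMDMs. The authors aligned reads to mm10 with Bowtie2, called HOMER peaks, kept those reproducible between replicates by IDR in each condition, merged the Veh and KLA peaks and deposited raw tag counts for each peak; tool versions are not given in the sources used here. Input libraries were not analysed here.

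Counts were tested with the quasi-likelihood test of edgeR 4.0.16 in R 4.3.3 for peaks that reached 4 tags (16 for H3K27ac) in any library, with the library totals of the file headers (6.36 to 8.65 M tags) as library sizes and Benjamini-Hochberg adjustment over all tested peaks. A peak was called at an adjusted p under 0.05 and a change of more than 2-fold. SEs are the log2 change divided by the square root of F. A group at 0 was given 3 tags over both of its libraries as a bound, and ratios with 1 to 3 tags in a group carry an exact 95% interval, both of which cover counting error only. On simulated counts for the same 27931 peaks, 33 of 100 peaks changed 4-fold and 81 of 100 changed 8-fold were called, and 7.32% of the calls were false. No other peaks were changed, far fewer than the 2884 and 708 called in the data, so these rates need not hold for the data.

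Genes and annotation classes are those of the deposited peak annotation, and a peak belongs to the gene with the nearest start. Sequences and GC content were read from GRCm38.p6, on which 27930 of the 27931 peaks lie. Named peaks were those with the lowest p in each direction, in each list and in each class, those of the genes with the most calls or calls in both directions, the strongest peaks, and those of Ptgs2, Cp, Il12a, Mapk3, Map2k1 and Map2k2. Some items are not reported here. Camp was named after its value was seen, as were genes given only as members of a list. The members and lists were chosen with earlier results of these data known. Replicate numbers did not pair the samples (correlation of deviations from the group means 0.012), so groups were compared unpaired. DESeq2 1.42.0, TMM, other filters, a replicate block, a GC correction and leaving out each library were tried as alternatives.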

Additional observations from a re-analysis of the deposited data

How the results depend on the processing

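Leaving out 1 library moved the calls to between 692 and 3310 higher and between 225 and 683 lower, and the share of higher peaks that were distal to between 88.2 and 89.6%. Of the 248 named peaks that were called, 111 kept the call without KLA library 1, 119 without KLA library 2, 199 without Veh library 1 and 196 without Veh library 2, against 222 with TMM, 230 with DESeq2 and 206 with the GC trend removed. Lower calls were 1193 with TMM and 1265 with DESeq2, and all 708 lower calls remained with TMM. The median log2 change over all peaks was 0.047 with TMM, 0.072 when edgeR took the size factors of DESeq2 and 0.073 with DESeq2 itself. Within 2 kb of a start it was -0.23, -0.21 and -0.21 and at distal peaks 0.15, 0.18 and 0.18. DESeq2 size factors put 89.6% of the higher peaks in the distal class. With the GC trend removed, which was chosen after seeing the data as was the repeat of the gene list counts without each library, 85.4% of the higher and 86.0% of the lower peaks were distal, and the median within 2 kb of a start was 0.25. With the replicate block 2431 peaks were higher and 543 lower, of which 2149 and 431 were also called without it.

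With TMM the medians at higher and lower ERK1 peaks were 2.34 and -1.76 for p65, 1.52 and -0.95 for PU.1, 2.36 and -1.89 for p300 and 0.85 and -0.56 for H3K27ac. They were -0.024 and 0.21 for PGC1β with ERKi, -0.16 and 0.20 for NCoR with ERKi and 0.040 and -0.036 for ERK1 at day 4 against day 0, so all 3 changed sign at lower peaks. Matching within 100 bp gave 1.20 for PU.1 and -0.29 for PGC1β with ERKi at higher peaks, and within 1000 bp 1.00 for PU.1. Without 1 library, medians at higher ERK1 peaks ran from 3.49 to 3.72 for p65, 2.06 to 3.01 for Fosl2, 1.07 to 1.12 for PU.1, 2.84 to 2.97 for p300, 1.87 to 2.13 for NCoR, 1.79 to 2.34 for HDAC3, 0.86 to 1.02 for H3K27ac and -0.29 to -0.21 for PGC1β with ERKi. At lower ERK1 peaks they ran from -2.74 to -1.40 for Fosl2, -1.84 to -1.56 for NCoR, -0.53 to -0.27 for H3K27ac, -0.091 to 0.030 for PGC1β with ERKi, -1.08 to -0.92 for NCoR with ERKi and 0.63 to 1.22 for ERK1 by day. The cause of these changes was not tested. At the depth and spread of these 4 libraries 33 of 100 simulated peaks changed 4-fold were called. The simulation changed far fewer peaks than were called in the data, so this share need not hold there. A peak without a call may still have changed.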
